A study of Rattus norvegicus with 9 samples.

Results

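The proteasome subunit genes of the rat left ventricle were taken as all gene names that start with Psma, Psmb, Psmc, Psmd, Psme, Psmf or Psmg followed by a digit, without the immunoproteasome genes Psmb8, Psmb9 and Psmb10. The pattern matched 49 names, and 46 remained after those 3 were left out. Of these, 44 had a mean of at least 1 CPM, the counts scaled to a common library total with TMM factors, over the 9 libraries and were kept, out of 22608 genes in all. The 2 names below that level were the testis subunit gene Psma8, with 0.293 CPM in saline 2 and 0 elsewhere, and the thymus subunit gene Psmb11, with 0.236 CPM in NaBu 4 and 0 elsewhere. All 44 kept members passed the filter on low counts and were tested. No measured difference between groups entered the rule. One kept name, Psmc3ip, is not a proteasome gene: it encodes a cofactor of meiotic recombination and matches by its name, so it was counted among the 44 but put in no role group.

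The study sequenced RNA of the left ventricle in Sprague-Dawley rats, with 3 groups of 3 libraries. Rats of 8 weeks received saline, angiotensin II (Ang II), or Ang II with sodium butyrate (NaBu) for 28 days. Ang II is a peptide hormone that constricts blood vessels and is given to rodents to load the heart, and NaBu, the salt of butyric acid, is an inhibitor of histone deacetylases. The labels name no dose, route or vehicle beyond saline, no genetic change and no NaBu group without Ang II, nor whether each library is 1 animal. The p-values therefore measure the spread between libraries, part of which may be technical. Libraries are named saline 1, 2 and 3, Ang II 1, 2 and 3, and NaBu 2, 4 and 6, and levels are given in that order.

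The proteasome degrades proteins that carry chains of ubiquitin. Its core particle is a barrel of stacked rings: outer rings of alpha subunits gate the entry, and inner rings of beta subunits hold the proteolytic sites. The regulatory particle caps the barrel, with a ring of ATPases that unfolds the substrate and non-ATPase subunits that bind and remove ubiquitin. Other activators can cap the core in its place, and dedicated chaperones assemble both particles. In heart muscle the proteasome turns over sarcomere proteins and regulatory proteins, and in mammals its genes are known to be induced together by the transcription factor Nfe2l1. The kept members comprised 7 alpha and 7 beta genes of the core particle, 6 ATPase and 11 non-ATPase genes of the regulatory particle, 5 genes of activators and an inhibitor, and 7 genes of assembly chaperones.

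Total estimated counts ranged from 29284780 in saline 3 to 49865446 in NaBu 6. Ventricular cardiomyocyte markers (9 of 9 above 0 in every library) summed to between 48128 and 79480 CPM, so the defining markers of the labelled tissue were present. Saline 2 stood apart: 5 atrial markers summed to 5634 CPM there, and its ventricular markers had the lowest sum. The atrial sum was 256.7 CPM in saline 3 and between 24.5 and 83.4 CPM in the remaining libraries. Saline 2 and 3 were also left out together in an alternative fit. Proteasome genes were also low in saline 2, where 24 of the 44 members had their lowest level of all libraries; 11 others were lowest in Ang II 1. Results are therefore given with and without saline 2 where it bears on them, and its part in them beyond those values was not tested. In bulk tissue, fewer cells of a type and less RNA per cell cannot be told apart.

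The promoters below are shown because the 6 members called by the test (Psma6, Psmb1, Psmd1, Psmd8, Psme1 and Psme4) were higher together, and 2 members that differed little, Psmb4 and Psmd7, serve as a comparison. They are the 250 bases before the annotated start, from RefSeq on build GRCr8, 5′ to 3′ on the strand of the gene. Capitals mark exact matches, on either strand, to 3 motifs: CCGGAA, the core bound by ETS factors; CCAAT, bound by NF-Y; and TGACNNNGC, the antioxidant response element core bound by Nfe2l1 and Nfe2l2. No 2 matches overlapped in these promoters, and those of Psmd8 and Psme1, not printed, hold none of the motifs.
Psma6 (chr6:78514097-78514346, plus strand, 58.0% G or C): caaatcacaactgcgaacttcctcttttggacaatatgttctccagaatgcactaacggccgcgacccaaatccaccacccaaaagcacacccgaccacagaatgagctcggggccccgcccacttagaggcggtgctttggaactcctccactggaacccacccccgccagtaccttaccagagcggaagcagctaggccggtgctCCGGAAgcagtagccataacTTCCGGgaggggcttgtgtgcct
Psmb1 (chr1:65134771-65135020, minus strand, 51.6% G or C): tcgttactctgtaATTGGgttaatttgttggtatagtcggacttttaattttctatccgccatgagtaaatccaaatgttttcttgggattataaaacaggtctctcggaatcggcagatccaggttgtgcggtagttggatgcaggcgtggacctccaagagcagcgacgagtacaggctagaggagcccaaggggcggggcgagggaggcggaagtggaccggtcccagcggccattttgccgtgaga
Psmd1 (chr9:94157721-94157970, plus strand, 52.0% G or C): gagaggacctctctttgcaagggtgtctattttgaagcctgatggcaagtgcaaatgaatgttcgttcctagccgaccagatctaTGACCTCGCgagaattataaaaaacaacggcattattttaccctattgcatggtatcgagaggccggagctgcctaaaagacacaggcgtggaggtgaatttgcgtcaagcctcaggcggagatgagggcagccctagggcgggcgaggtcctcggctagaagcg
Psme4 (chr14:108706393-108706642, plus strand, 64.8% G or C): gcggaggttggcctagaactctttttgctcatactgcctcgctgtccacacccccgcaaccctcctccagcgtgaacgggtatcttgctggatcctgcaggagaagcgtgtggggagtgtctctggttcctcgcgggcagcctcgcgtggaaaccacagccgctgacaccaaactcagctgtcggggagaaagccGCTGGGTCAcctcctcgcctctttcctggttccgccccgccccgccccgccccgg
Psmb4 (chr2:185134562-185134811, minus strand, 57.6% G or C): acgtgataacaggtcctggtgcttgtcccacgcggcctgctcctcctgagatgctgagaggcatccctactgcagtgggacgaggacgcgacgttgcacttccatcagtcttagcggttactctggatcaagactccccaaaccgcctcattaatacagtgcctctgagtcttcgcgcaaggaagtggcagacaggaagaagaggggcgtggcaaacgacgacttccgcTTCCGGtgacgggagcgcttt
Psmd7 (chr19:52411317-52411566, minus strand, 46.4% G or C): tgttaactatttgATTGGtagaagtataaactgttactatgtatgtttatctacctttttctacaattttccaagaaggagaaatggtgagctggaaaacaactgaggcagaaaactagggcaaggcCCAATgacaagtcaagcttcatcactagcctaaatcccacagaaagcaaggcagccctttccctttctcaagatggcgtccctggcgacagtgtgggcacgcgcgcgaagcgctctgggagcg

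Psma6 had CCGGAA at -43 to -38 and, on the other strand, at -23 to -18, counted from the start. Psmd1 had TGACNNNGC at -165 to -157, and Psme4 had it on the other strand at -55 to -47. The matches of Psmb1 (CCAAT) and Psmb4 (CCGGAA) lay on the other strand at -237 to -233 and -21 to -16, and Psmd7 held CCAAT at -123 to -119 and, on the other strand, at -237 to -233. Further matches of Psmd1, Psme4 and Psmd7 lay after the start or across it and are not shown. Over 300-base windows (250 before and 50 after the start), 40 of the 44 members had a promoter in the table. CCGGAA was in 21 of those 40 (52.5%) and in 15% of all 33469 promoters; within the proteasome it was in 10 of 14 regulatory particle genes and 4 of 13 core genes. CCAAT was in 20 of 40 (50%, against 37.5% of all promoters), with 9 of 13 core genes and 5 of 14 regulatory particle genes. TGACNNNGC was in 8 of 40 (20%, against 12.1%): Psma3, Psmb2, Psmb5, Psmb6, Psmd1, Psmd3, Psmd9 and Psme4. Of the 6 called members, 2 held CCGGAA, 1 held CCAAT and 2 held TGACNNNGC, so no motif marked them all. These matches are letters in a window and not evidence of binding.

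Proteasome genes were mostly higher in the NaBu libraries than in either other group, while the Ang II and saline libraries overlapped for every member. Between Ang II+NaBu and Ang II, 37 of 44 members were higher and 7 lower (84.1% higher, where 47.3% of all tested genes were), with a median log2 difference of 0.26 (a fold of 1.2) beside -0.02 for all 15467 tested genes. The 3 NaBu libraries lay above the 3 Ang II libraries in 24 members (54.5%), where 18.1% of all tested genes did so, and below them in 1 member, Psmd10, where 17.5% did. At an unadjusted p under 0.05, 20 members were higher (45.5%, background 11.3%) and 0 lower (background 11.1%). After Benjamini-Hochberg adjustment over all genes, edgeR's quasi-likelihood test called 0 members (background 0.647% for rises and 0.957% for falls), with a lowest adjusted p of 0.0654 for Psmd1. DESeq2 called 12 of them, all higher, where it called 6.77% of its tested genes as rises and 5.13% as falls. Without saline 2, which enters this comparison only through the shared spread, filter and scaling, edgeR called 13 members higher (background 6.16%), and without saline 3 it called 3 (background 1.71%); the median was 0.27 and 0.26. With only the 6 libraries of these groups in the fit it called 15 (background 7.12%). Scaling by total count alone put the median of all genes at -0.13 and that of the members at 0.15, which is 0.28 above it, with 33 members higher.

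Between Ang II+NaBu and saline, 39 of 44 members were higher and 5 lower (background 44.7% higher), with a median of 0.24 beside -0.05 for all tested genes. Psma6, Psmb1, Psmd1, Psmd8, Psme1 and Psme4 rose by edgeR, 13.6% of the members where 3.01% of all tested genes rose, and 0 fell (background 2.05%). At an unadjusted p under 0.05, 18 members were higher (background 12.4%) and 0 lower (background 12.2%), and in 22 the NaBu libraries lay above all saline libraries (background 14.5%), with 0 below them (background 14.1%). DESeq2 called 11 members, all higher (background 9.05% for rises and 5.55% for falls). The count of 6 depended on single libraries: edgeR called 3 without saline 1 (Psma3, Psmd1 and Psmd11; background 1.47%), 2 without saline 2 (Psmd1 and Psme1; 1.86%), 8 without saline 3 (4.86%) and 5 without Ang II 1 (2.79%). It called 0 without Ang II 2 (0.874%), Ang II 3 (0.909%), NaBu 2 (0.0317%), NaBu 4 (0.432%) or NaBu 6 (0.019%). Over those 9 fits Psmd1 was called in 4, Psme1 in 3, Psma6 in 2, Psmb1 and Psmd8 in 1 each and Psme4 in 0. The count was also 0 with only the 6 libraries of these groups in the fit (background 0.0331%) and with the highest transcript of each gene in place of the sum (background 0.104%). Without saline 2 the median was 0.18 and 33 members were higher.

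Between Ang II and saline, 24 members were higher and 20 lower (background 49.0% higher), with a median of 0.03. edgeR called 0 members and 0.0% of all tested genes in either direction; 0 members had an unadjusted p under 0.05 (background 2.44% higher and 3.49% lower), DESeq2 called 0 (background 0.152% for rises and 0.225% for falls), and in 0 members did the 2 groups fail to overlap (background 4.94% higher and 4.97% lower). The smallest unadjusted p was 0.135, for Psma3. Members ranged from -0.27 (Psmc3ip, SE 0.23) to 0.50 (Psmd10, SE 0.501), and the median standard error of a member was 0.129. Without saline 2 the median was -0.08, with 13 members higher and 31 lower. The NaBu comparisons share libraries with each other and with this one, so their values are given side by side and not as repeats.

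**Figure D1:**
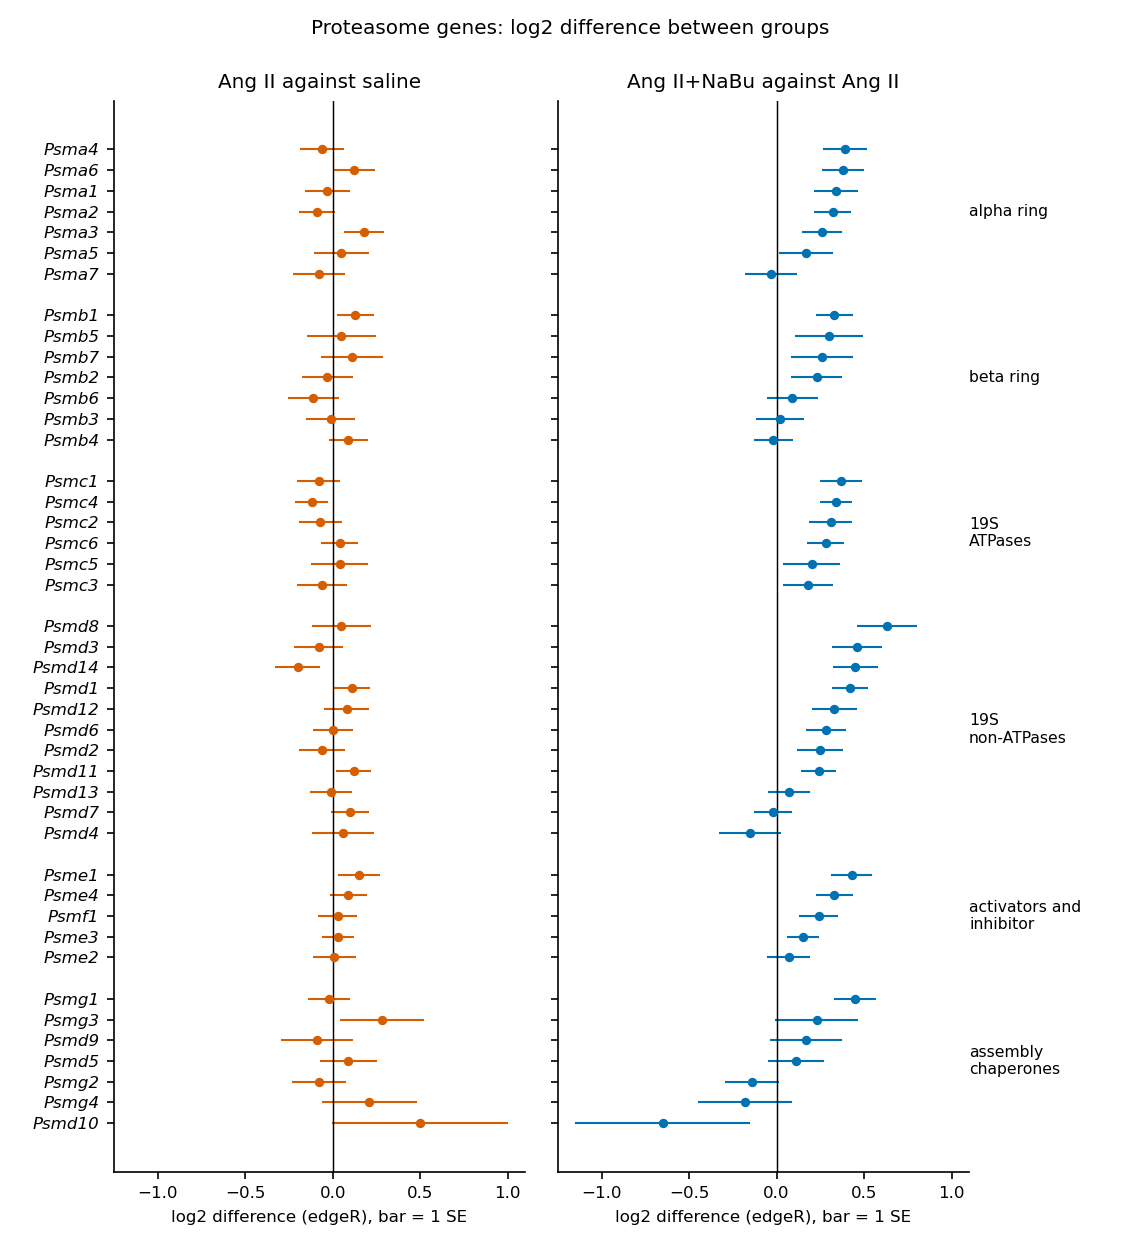
Log2 differences from edgeR (point) with 1 standard error (bar) for the 43 proteasome genes, grouped by role, for Ang II against saline (left) and Ang II+NaBu against Ang II (right). Points on the left scatter about 0, with a median of 0.03 over all members; on the right most lie above 0, with a median of 0.26, and Psmd10 is the lowest at -0.65.

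By library, the median log2 ratio of the 44 members to their own mean over the 9 libraries was -0.01, -0.27 and 0.02 in saline, -0.20, -0.03 and 0.01 in Ang II, and 0.17, 0.16 and 0.22 in NaBu. The same median over all tested genes lay between 0.00 and 0.03 in every library. Each NaBu library was above each of the other 6 for the members. Of the 44, 17 had their highest level in NaBu 6, 10 in NaBu 2 and 5 in NaBu 4, and the other 12 were highest in a saline or Ang II library.

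**Figure D2:**
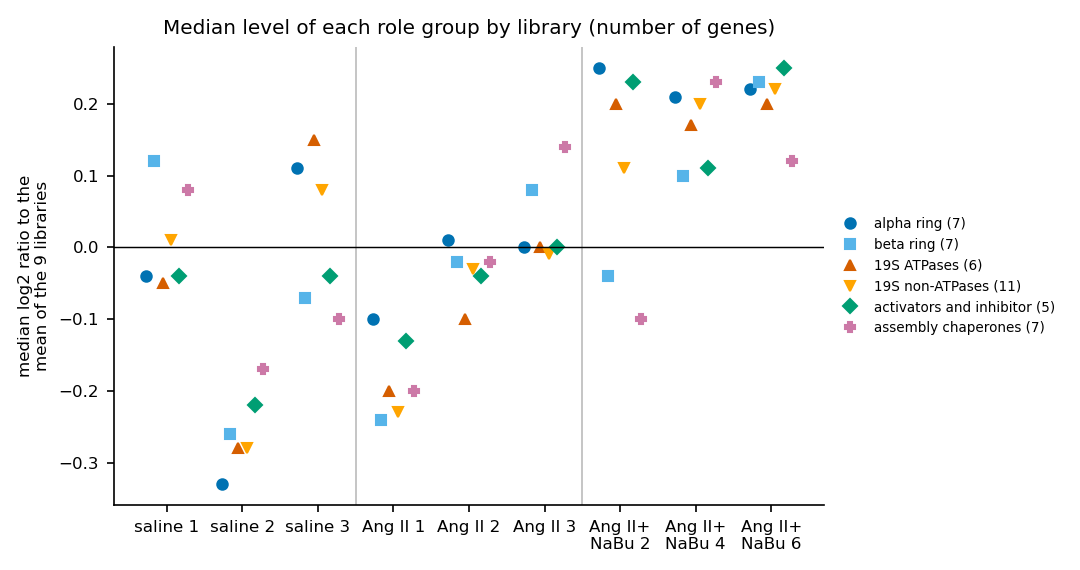
Median log2 ratio of each role group in each library, relative to each gene's mean over the 9 libraries; the number of genes is in the legend. The NaBu libraries are at or above 0.10 for every group except the beta ring (-0.04) and the chaperones (-0.10) of NaBu 2, and saline 2 is lowest for the alpha ring at -0.33.

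In the alpha ring, which gates the core, 6 of 7 genes were higher in Ang II+NaBu than in Ang II, with a median of 0.32. Among them, 5 had an unadjusted p under 0.05 (71.4% of the 7, background 11.3% higher). Psma6 was at 77.3, 62.2 and 78.4 CPM in saline, 69.3, 84.6 and 83.4 in Ang II, and 100.7, 97.8 and 109.8 in NaBu. All NaBu libraries lay above the other 6. Psma6 rose over saline by 0.50 (SE 0.121, edgeR adjusted p = 0.0432), and its difference from Ang II was 0.38 (SE 0.12, adjusted p = 0.114). Psma4 had the largest alpha difference from Ang II, 0.39 (SE 0.127, adjusted p = 0.117): its levels were 64.3, 52.9 and 76.1, then 63.5, 56.9 and 64.4, then 83.5, 79.5 and 79.4 CPM, again without overlap between NaBu and the rest. Psma7 was the exception, at 46.6, 36.3 and 55.7, then 44.7, 41.0 and 45.3, then 39.6, 40.1 and 48.2 CPM, with groups that overlapped and a difference of -0.03 (SE 0.149, adjusted p = 0.922). Psma1, Psma2, Psma3 and Psma5 were at 0.34, 0.32, 0.26 and 0.17, and Psma5 alone of these overlapped between Ang II and NaBu.

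In the beta ring, 6 of 7 genes were higher than in Ang II, with a median of 0.23. Only Psmb1 had an unadjusted p under 0.05, which is 14.3% of the 7 and near the background of 11.3%. Psmb1, a beta subunit without a proteolytic site, was at 77.4, 68.8 and 68.8 CPM in saline, 69.3, 80.9 and 85.4 in Ang II, and 92.4, 105.3 and 99.4 in NaBu, with NaBu above both other groups. It rose over saline by 0.47 (SE 0.106, edgeR adjusted p = 0.0376) and differed from Ang II by 0.33 (SE 0.106, adjusted p = 0.112). The 3 genes of the proteolytic sites did not pass the test. Psmb5, the chymotrypsin-like subunit, had 42.7, 26.0 and 36.1, then 29.6, 38.3 and 40.8, then 36.0, 49.1 and 49.2 CPM, with overlapping groups and a difference from Ang II of 0.30 (SE 0.196, adjusted p = 0.392). Psmb7, the trypsin-like subunit, had 76.6, 54.0 and 97.0, then 77.5, 82.4 and 86.1, then 105.6, 89.8 and 100 CPM; NaBu lay above Ang II but not above saline 3, and the difference from Ang II was 0.26 (SE 0.177, adjusted p = 0.412). Psmb6, the caspase-like subunit, stayed between 36.0 and 50.8 CPM in all 9 libraries, with saline 1 the highest, and differed from Ang II by 0.09 (SE 0.146, adjusted p = 0.767). The lowest beta gene was Psmb4, another subunit without a proteolytic site, at 49.7, 41.7 and 41.1, then 41.9, 50.3 and 48.7, then 44.6, 44.6 and 50.1 CPM. Its groups overlapped and its difference was -0.02 (SE 0.111, adjusted p = 0.949). Psmb2 was at 0.23 and Psmb3 at 0.02, both with overlap. Under scaling by total count Psmb6 and Psmb3 were lower than in Ang II.

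All 6 ATPase genes of the regulatory particle were higher than in Ang II, with a median of 0.30 and a narrow range from 0.18 to 0.37. Of the 6, 4 had an unadjusted p under 0.05 (66.7%, background 11.3% higher). Psmc1, whose product helps to open the core's gate, was highest, with 86.0, 70.9 and 95.3 CPM in saline, 72.3, 82.6 and 83.4 in Ang II, and 110.1, 99.4 and 97.9 in NaBu. NaBu lay above both other groups, and the difference from Ang II was 0.37 (SE 0.121, adjusted p = 0.119). Psmc3, the lowest of the 6, had 66.3, 60.4 and 88.5, then 60.0, 72.9 and 73.4, then 79.0, 76.1 and 79.4 CPM; NaBu was above Ang II but below saline 3, at 0.18 (SE 0.143, adjusted p = 0.485). Psmc4, Psmc2, Psmc6 and Psmc5 were at 0.34, 0.31, 0.28 and 0.20. Psmc5 was the only ATPase gene whose NaBu and Ang II libraries overlapped. None of the 6 was called in any of the 3 comparisons, and the lowest adjusted p was 0.0825 (Psmc4, NaBu against Ang II).

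Among the 11 non-ATPase genes, 9 were higher than in Ang II (median 0.28), 7 of them with an unadjusted p under 0.05 (63.6% of the 11, background 11.3% higher). This group held the largest positive difference among the members and also genes near 0. Psmd8, a subunit of the lid, had 29.4, 22.7 and 37.1 CPM in saline, 26.6, 33.2 and 32.3 in Ang II, and 43.5, 46.0 and 52.8 in NaBu. The NaBu libraries were the 3 highest. Psmd8 rose over saline by 0.68 (SE 0.17, edgeR adjusted p = 0.0499) and differed from Ang II by 0.63 (SE 0.17, adjusted p = 0.0818). Psmd1, the large scaffold subunit of the base, had 180.5, 151.5 and 188.2, then 181.6, 188.2 and 190.0, then 253.1, 241.1 and 253.3 CPM. No saline or Ang II library exceeded 190.0 CPM, and no NaBu library was below 241.1 CPM. Psmd1 rose over saline by 0.52 (SE 0.101, edgeR adjusted p = 0.026) and differed from Ang II by 0.42 (SE 0.101, adjusted p = 0.0654). Psmd14, the deubiquitinase that strips ubiquitin from substrates, had 37.2, 28.8 and 36.6, then 27.0, 29.3 and 33.2, then 37.3, 44.8 and 40.3 CPM. NaBu was above the other 6 libraries, with NaBu 2 just over saline 1, and the difference from Ang II was 0.45 (SE 0.129, adjusted p = 0.0903). Psmd4, a ubiquitin receptor, went the other way without passing the test: 49.7, 30.2 and 50.5, then 47.0, 46.0 and 42.9, then 37.9, 46.3 and 38.1 CPM, with overlap and a difference of -0.15 (SE 0.177, adjusted p = 0.658). Psmd3, Psmd12, Psmd6, Psmd2 and Psmd11 were at 0.46, 0.33, 0.28, 0.25 and 0.24, while Psmd13 and Psmd7 were at 0.07 and -0.02.

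All 5 genes of activators and the inhibitor were higher than in Ang II (median 0.24), although Psme2 turned lower under scaling by total count. Psme1 and Psme2 encode the 2 subunits of an activator ring that is best known from antigen processing. Psme1 had 134.7, 115.7 and 157.8 CPM in saline, 147.0, 158.6 and 147.4 in Ang II, and 210.3, 191.2 and 209.5 in NaBu, with the NaBu libraries above all others. It rose over saline by 0.58 (SE 0.118, edgeR adjusted p = 0.0305) and differed from Ang II by 0.43 (SE 0.118, adjusted p = 0.0827). Psme2 had 31.6, 23.9 and 26.8, then 26.2, 26.9 and 29.8, then 31.4, 26.6 and 28.8 CPM, with overlapping groups and a difference from Ang II of 0.07 (SE 0.123, adjusted p = 0.798). The difference between these 2 genes was not tested. Psme4, a nuclear activator, had 368.1, 325.2 and 316.3, then 325.6, 382.1 and 365.5, then 442.6, 432.6 and 473.5 CPM. NaBu lay above both other groups, and Psme4 rose over saline by 0.42 (SE 0.104, edgeR adjusted p = 0.0488), with 0.33 against Ang II (SE 0.104, adjusted p = 0.111). Psme3, the other nuclear activator, had 65.1, 61.8 and 65.4, then 65.4, 63.6 and 67.0, then 80.7, 67.9 and 69.0 CPM; NaBu lay above the rest, mainly in NaBu 2, and the difference was 0.15 (SE 0.0931, adjusted p = 0.37). Psmf1, which encodes an inhibitor of the core in vitro, had 15.3, 15.6 and 16.6, then 14.4, 16.5 and 17.5, then 18.9, 18.3 and 20.1 CPM. Its NaBu libraries were the 3 highest, by 0.24 over Ang II (SE 0.112, adjusted p = 0.232).

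**Figure D3:**
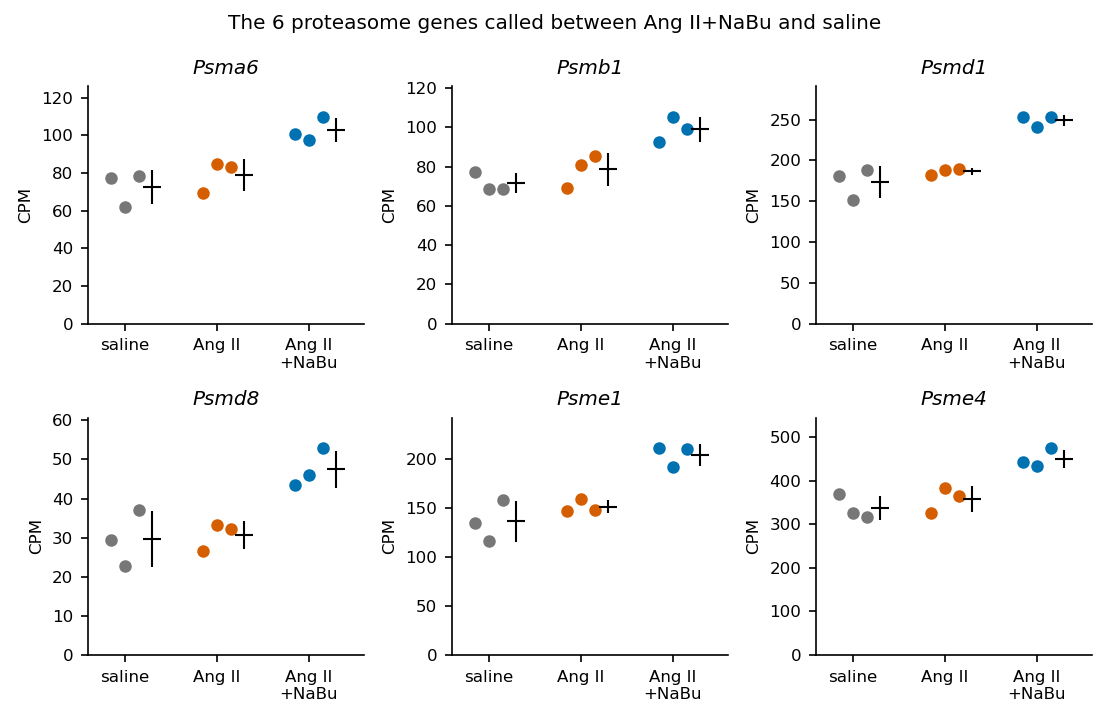
Level in CPM of the 6 members that rose in Ang II+NaBu over saline, with 1 point per library and the mean ± SD (n = 3) beside each group; each axis starts at 0. In every panel the 3 NaBu points lie above all saline and Ang II points, as for Psmd1 at 249.2 ± 6.99 CPM in NaBu against 186.6 ± 4.41 in Ang II and 173.4 ± 19.4 in saline.

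The 7 assembly chaperones were mixed in direction: 4 were higher and 3 lower than in Ang II, with a median of 0.11. Only 1 had an unadjusted p under 0.05, as higher (14.3%, near the background of 11.3%). Psmg1, whose product pairs with that of Psmg2 to assemble the alpha ring, had 16.2, 15.9 and 16.7 CPM in saline, 13.5, 17.6 and 17.1 in Ang II, and 21.1, 22.3 and 22.7 in NaBu. NaBu lay above both other groups, at 0.45 over Ang II (SE 0.121, adjusted p = 0.0793). Its partner Psmg2 was at 7.33 ± 0.52 CPM (SD, n = 3) in Ang II and 6.63 ± 0.604 in NaBu, a difference of -0.14 (SE 0.155, adjusted p = 0.626). Psmd10, a chaperone of the regulatory particle's base, had 1.86, 1.06 and 0.462, then 1.72, 1.54 and 1.57, then 0.903, 1.36 and 0.812 CPM. It was the only member whose NaBu libraries all lay below the Ang II libraries, at -0.65 (SE 0.5, adjusted p = 0.482), and it rested on 12 to 68 estimated counts per library. Psmg3, Psmd9, Psmd5 and Psmg4 were at 0.23, 0.17, 0.11 and -0.18, all with overlap. No test compared the chaperones with the subunits. Psmc3ip, the name that is not a proteasome gene, was at 0.28 (SE 0.229, adjusted p = 0.509).

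Core and regulatory particle genes had median differences close to each other in each comparison. Against Ang II, 12 of 14 core genes were higher (median 0.26) and 15 of 17 regulatory particle genes (median 0.28); against saline the medians were 0.27 and 0.26, and between Ang II and saline 0.02 and 0.00. Without saline 2 the medians were 0.18 and 0.19 against saline, and between Ang II and saline they were -0.10 (10 of 14 core genes lower) and -0.14 (14 of 17 regulatory particle genes lower). An unadjusted p under 0.05 against Ang II was reached by 6 core genes (42.9%) and 11 regulatory particle genes (64.7%), all higher (background 11.3%). The difference between these shares was not tested. Summed over genes, core levels were 766.3, 608.7 and 772.8 CPM in saline, 684.7, 757.7 and 769.6 in Ang II, and 857.2, 863.2 and 916.4 in NaBu, so each NaBu library exceeded every other. The regulatory particle sums were 1213, 989.9 and 1272, then 1083, 1185 and 1221, then 1402, 1403 and 1456 CPM, with the same order of groups. The ratio of the core sum to the regulatory particle sum was 0.632, 0.615 and 0.608 in saline, 0.632, 0.639 and 0.63 in Ang II, and 0.611, 0.615 and 0.629 in NaBu. The means were 0.618 ± 0.0123, 0.634 ± 0.00478 and 0.619 ± 0.00947 (SD, n = 3). Saline and Ang II overlapped, while the highest NaBu ratio lay just below the lowest Ang II ratio, a difference that was not tested. The values are not per length, so the ratio is not one of molecules.

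Markers of several cell types differed between the same 2 groups. Ventricular cardiomyocyte markers summed to between 65361 and 67290 CPM in Ang II and between 71456 and 79474 in NaBu, without overlap, and 8 of 9 were higher (median 0.35). Endothelial markers summed to 1124 to 1316 CPM in Ang II and 920.3 to 1085 in NaBu (0 of 5 higher), lymphocyte markers to 6.01 to 7.21 and 3.38 to 4.64 (0 of 4), and erythroid markers to 478.1 to 872.7 and 330.0 to 468.9 (0 of 3). Smooth muscle markers were also lower in 4 of 4, with sums of 340.6 to 434.5 and 251.7 to 353.3 CPM that overlapped. The sums for fibroblasts (2581 to 2722 and 2578 to 3225), macrophages (129.6 to 147.4 and 138.8 to 156.4) and atrial cardiomyocytes (24.5 to 53.2 and 50.1 to 83.4) overlapped as well, with 5 of 6, 3 of 4 and 4 of 5 markers higher. edgeR called 0 markers between Ang II+NaBu and Ang II (background 0.647% for rises and 0.957% for falls), and no marker was at 0 in all 9 libraries. At an unadjusted p under 0.05, 3 ventricular markers were higher (background 11.3%) and 3 endothelial, 2 erythroid and 1 lymphocyte marker lower (background 11.1%). DESeq2 called 1 ventricular marker higher (background 6.77%) and 2 endothelial and 1 erythroid marker lower (background 5.13%). In saline the ventricular marker sum was 68328, 48128 and 79480 CPM, so that the NaBu libraries lay above saline 1 and 2, and saline 3 just above the highest NaBu library. In Ang II+NaBu against saline, the comparison of the 6 called members, 7 of the 9 ventricular markers were higher (background 44.7%), with a median of 0.32. Of the 9, 1 rose by edgeR (Pln, background 3.01%) and 4 were higher at an unadjusted p under 0.05 (background 12.4%). DESeq2 called 3 higher (Pln, Tnni3 and Myl3, named after their values were seen, background 9.05%). The part of these markers in the proteasome values was not tested.

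Genes that mark proteins for the proteasome were also mostly higher. In a list of ubiquitin genes, ubiquitin enzymes and shuttle factors, 25 of 26 names were present. Of the 25, 24 were higher in Ang II+NaBu than in Ang II (96.0%, background 47.3%), with a median of 0.29. At an unadjusted p under 0.05, 12 were higher (48.0%, background 11.3%) and 0 lower (background 11.1%). DESeq2 called 7 higher (background 6.77%), and 1 rose by edgeR (4%, background 0.647%). That was the ubiquitin-conjugating enzyme gene Ube2l3, with 78.8, 81.8 and 76.9 CPM in saline, 90.1, 92.4 and 88.0 in Ang II, and 122.2, 114.0 and 117.4 in NaBu. Ube2l3 was at 0.39 over Ang II (SE 0.0805, adjusted p = 0.0473) and was called in 2 of the 9 fits that left out 1 library. Ube2r2, another conjugating enzyme, had the largest difference, 0.68 (SE 0.179, adjusted p = 0.0787), and the activating enzyme Uba6 the lowest, -0.06 (SE 0.138, adjusted p = 0.841). Against saline 7 of the 25 rose (28.0%), among them Ube2d1 (0.72), Ube2d2 (0.61), Ube2d3 (0.50), Ube2g1 (0.50), Ube2l3 (0.57, adjusted p = 0.0131) and Ube2r2 (0.74), with a median of 0.34 over the list and 0 that fell. The background of edgeR rises was 3.01%. In that comparison 14 of the 25 were higher at an unadjusted p under 0.05 (background 12.4%), and DESeq2 called 12 higher (background 9.05%). Between Ang II and saline the list's median was 0.05 and 0 were called by edgeR or DESeq2. There 3 had an unadjusted p under 0.05, all higher (12.0%, background 2.44%).

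The list of proteins bound to the proteasome and regulators of its assembly or transcription held 18 of 21 names. Its medians were smaller, 0.09 against Ang II and 0.18 against saline. In both NaBu comparisons 14 of 18 were higher (77.8%, background 47.3% against Ang II and 44.7% against saline). The count was also 14 of 18 between Ang II and saline (background 49.0%), with a median of 0.08. There edgeR and DESeq2 called 0. Against Ang II edgeR called 0, and 4 were higher at an unadjusted p under 0.05 (22.2%, background 11.3%). DESeq2 called 1 higher against Ang II (background 6.77%). Against saline edgeR called 1 of the 18, as a rise (5.56%, background 3.01%). In that comparison 6 were higher at an unadjusted p under 0.05 (33.3%, background 12.4%), and DESeq2 called 4 higher (background 9.05%). Ube3a, a ubiquitin ligase that binds the proteasome, rose over saline by 0.44 (SE 0.102, edgeR adjusted p = 0.0397; called in 2 of the 9 fits that left out 1 library, with adjusted p up to 0.153), from 160.7 ± 14.6 to 218.1 ± 13.5 CPM (SD, n = 3). The deubiquitinase gene Usp14 was highest against Ang II at 0.34 (SE 0.124, adjusted p = 0.148), and Zfand2a, a stress-induced proteasome binder, lowest at -0.21 (SE 0.14, adjusted p = 0.401). Nfe2l1, the transcription factor named above and chosen here after its values were seen, had 479.3, 420.0 and 541.5 CPM in saline, 490.1, 517.5 and 515.9 in Ang II, and 639.9, 636.9 and 645.6 in NaBu. Its NaBu libraries were above the other 6, at 0.34 over Ang II (SE 0.107, adjusted p = 0.114) and 0.42 over saline (SE 0.107, adjusted p = 0.0534), neither of which passed. Of the same list, Nfe2l2 and the NF-Y genes Nfyb, Nfya and Nfyc were at 0.10, 0.07, -0.06 and -0.14 against Ang II, all with overlap. Ngly1 and Ddi2 were at 0.00 and -0.04, also with overlap.

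Genes of the inducible proteasome and of antigen processing, taken as 1 list, were mostly lower in the NaBu libraries, without a call by edgeR. Of 11 immunoproteasome and antigen processing genes, 9 were lower in Ang II+NaBu than in Ang II, with a median of -0.30. The share that was higher was 18.2%, where 47.3% of all tested genes were higher. At an unadjusted p under 0.05, 4 were lower (background 11.1%), with Psmb8, Psmb9 and Psmb10 not among them, and 0 were higher. edgeR called 0 and DESeq2 called 2 lower (its background of falls was 5.13%). Psmb8, Psmb9 and Psmb10, which replace the proteolytic beta subunits after interferon, were at -0.38 (SE 0.254, adjusted p = 0.404), -0.29 (SE 0.21, adjusted p = 0.458) and -0.30 (SE 0.266, adjusted p = 0.554). The levels of Psmb8 were 7.68, 7.71 and 5.32 CPM in saline, 6.87, 6.71 and 8.02 in Ang II, and 3.53, 6.42 and 6.58 in NaBu, with the highest NaBu library just below the lowest Ang II library. Psmb9 and Psmb10 overlapped between Ang II and NaBu. The peptide transporter gene Tap1 was lowest at -0.55 (SE 0.16, adjusted p = 0.0948), with 16.3, 14.3 and 16.5 CPM in Ang II and 11.1, 10.2 and 10.9 in NaBu. Between Ang II and saline all 11 were higher (background 49.0%), with a median of 0.17. There 0 were called by edgeR or DESeq2, and 0 had an unadjusted p under 0.05 (background 2.44% higher and 3.49% lower). Between Ang II+NaBu and saline 8 were lower (27.3% higher, background 44.7%), with a median of -0.20. Either tool called 0 of them, and 1 was higher at an unadjusted p under 0.05 (9.09%, background 12.4%). The lymphocyte marker sums given above were also lower in NaBu than in Ang II, and their part in these values was not tested.

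The share of reads assigned to each transcript of a gene varied between libraries. The 44 members had 63 transcripts in the tables, and 16 members had more than 1. In 6 of those 16 the share of the curated transcript moved by at least 50 points between libraries. For Psmf1 the curated transcript held 91.2% and 72.7% of the gene's counts in saline 1 and 2 and at most 0.207% in the other 7 libraries, while the gene sum lay between 14.4 and 20.1 CPM. For Psmd5, a chaperone, it held 0.0% in saline 3, 44.6% in Ang II 2 and at least 98.4% in the other 7. For Psme4, one of the 6 called members, it held 53.4%, 32.4% and 99.9% in saline, 99.9%, 59.4% and 99.9% in Ang II, and 100%, 51.9% and 52.8% in NaBu, and with only its highest transcript counted the difference of Psme4 from Ang II was -0.02 (SE 0.426). For Psma3 and Psmd11 the shares ranged from 15% to 73.2% and from 10.5% to 86.8%, and for Psmg4 from 42.7% to 92.7%. Shares switched within groups as well as between them, so no transcript difference between groups is reported.

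**Figure D4:**
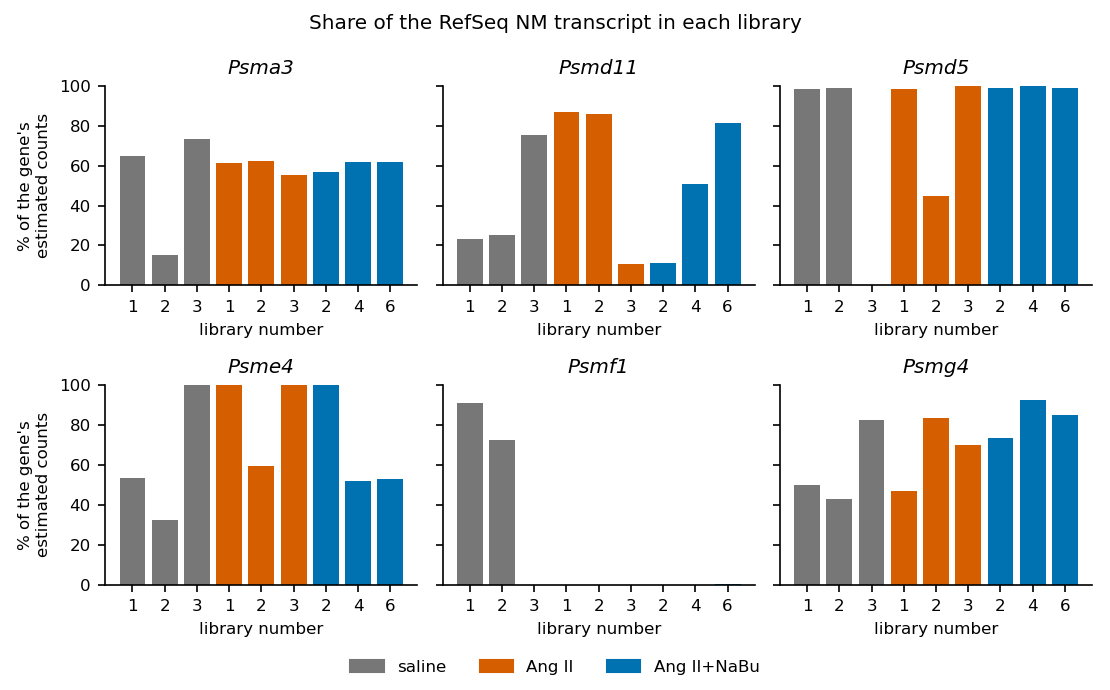
Share (%) of the estimated counts of a gene assigned to its RefSeq NM transcript, for the 6 members with a range of at least 50 points; bars are single libraries, coloured by group. Shares switch between libraries of the same group, as for Psmd5, which is at 0.0% in saline 3 and 98.5% in saline 1.

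Reads may also be shared with near-identical copies. The RefSeq annotation on GRCr8 lists 46 pseudogenes named for 19 of the members, with 7 for Psmb3, 5 for Psma6 and 4 for Psme3. Of the 6 called members, Psma6 has 5, Psmd8 has 2, Psme1 has 2 and Psmd1 has 1, and Psmb1 and Psme4 have 0. No source used here gives how the counting divided such reads, and the levels of those genes are uncertain to that extent.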

How the data were processed

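RNA-seq values of 9 libraries of rat left ventricle were analysed in 3 groups. The estimated counts stand in 3 tables that the authors deposited, with transcript IDs, gene names and a column for each library, per the file headers. Every group has its own table, and effects of the group and of how its table was made cannot be told apart. The last column of the saline table, other deposited values of this kind, ends in an extra carriage return, which was removed. Per the submitters' processing notes, Bowtie 0.12.2 and the build mm8, a mouse build, were used, although the IDs are those of rat RefSeq. No source used here gives the counting tool, the annotation or whether strand was used. The columns of the Ang II+NaBu table carry the numbers 2, 4 and 6. The design text of the series describes another experiment and was not used. Low values pile up near multiples of 4, so 1 sequenced fragment may be worth about 4 estimated counts, which dividing by 4 tries.

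Transcripts were summed by gene name (22608 genes from 55767 transcripts), and the values, already whole numbers, went into edgeR 4.0.16 in R 4.3.3 (TMM factors from 0.887 to 1.14, filterByExpr, quasi-likelihood test, prior count 0.125, all 9 libraries in 1 fit without covariates), which tested 15467 genes with a common biological coefficient of variation of 0.256. A gene was called, and is said to rise or fall, at a Benjamini-Hochberg adjusted p under 0.05 over all tested genes, and adjusted p-values are edgeR's unless another tool is named. Alternatives were DESeq2 1.42.0, other scalings, no filter, only the groups compared, the highest transcript per gene, counts divided by 4, and libraries left out. Lists are described by counts and medians without a test. The scripts were tested on simulated data.

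The members, gene lists and tests were chosen with earlier results of these data known. Values in every library are given for called members, the highest and lowest of each role group in Ang II+NaBu against Ang II, and a set of catalytic, receptor and activator genes; of other lists, the called genes and the extremes are named, except some that are not reported here. Other names that this rule would not give are said to be chosen after their values were seen or stand as bare differences. Promoters are those of RefSeq on GRCr8, with 40 of the 44 members matched by symbol.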

Additional observations from a re-analysis of the deposited data

How the results depend on the processing

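Under the alternatives the median difference of the members lay between 0.15 and 0.32 for Ang II+NaBu against Ang II. It lay between 0.17 and 0.31 for Ang II+NaBu against saline, and between -0.08 and 0.10, with a change of sign, for Ang II against saline. The SD of the member median between libraries was 0.116. That is a spread of single libraries and not the error of a difference between groups, so it does not show how stable these medians are. Counts of calls did not hold. Called members numbered 0 to 13 for Ang II+NaBu against Ang II and 0 to 8 for Ang II+NaBu against saline with 1 library left out; 12 and 11 by DESeq2; 15 and 0 with only the 2 groups compared; 14 and 0 without saline 2 and 3; and, for the latter comparison, 3 with scaling by total count and 0 with the highest transcript per gene. Called genes in all were 0, 248 and 782 for Ang II against saline, Ang II+NaBu against Ang II and Ang II+NaBu against saline. They numbered 57, 1515 and 1990 by DESeq2, 1, 1802 and 9 with only the 2 groups compared, 3, 5 and 21 with the highest transcript per gene, and 11, 1695 and 109 without saline 2 and 3. Scaling by total count gave 4 and 411 for the NaBu comparisons, with rises in 1.86% of all tested genes against saline. Leaving out 1 library gave 0 to 7, 1 to 1482 and 6 to 1303. The fit without saline 2 and 3 keeps only 1 saline library, so no conclusion is drawn from its counts of calls. Upper-quartile scaling split the calls of Ang II+NaBu against saline into 383 rises and 396 falls, in place of 465 and 317. The core minus the regulatory particle median was 0.02 for Ang II against saline (-0.03 without saline 2 and 3; 0.01 to 0.08 with 1 library left out), -0.02 for Ang II+NaBu against Ang II (-0.05 to 0.00) and 0.01 for Ang II+NaBu against saline (-0.02 to 0.05). Some differences changed sign: against saline, Psma3 in Ang II was at -0.03 (0.18 with all libraries) and Psmd10 at -0.21 (0.50) without saline 2 and 3; against Ang II, scaling by total count put Psmb6 at -0.01 and Psme2 at -0.04, Psma7 ran from -0.13 to 0.02 and Psmb4 from -0.08 to 0.06 with 1 library left out, and Psme4, at 0.33 by its gene sum, was at -0.02 with its highest transcript only. The cause of these changes was not tested; fits that leave libraries out have fewer samples.

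The saline and Ang II libraries share replicate numbers, but same-numbered libraries did not deviate together from their group means (correlations -0.00413, -0.0328 and 0.0078). These values showed no pairing, and whether libraries of the same number were handled together was not tested. With the replicate block, 0 genes and 0 members were called, the member median was 0.02 and the core minus regulatory median 0.01. The NaBu columns carry other numbers, so no paired fit was possible for them. Depth limits Psmd10 and Psmg3 most, which had the fewest counts per library.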
